A study of Gallus gallus with 16 samples.

Results

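Of the 15979 gene symbols listed in the RNA-seq tables of growing chicken feathers, 139 belonged by their symbol to the cytokine, receptor and defensin families of the immune system. They were taken by symbol alone: interleukins and their receptors, CC and CXC chemokines and their receptors, colony stimulating factors, Toll-like receptors (TLRs), interferon regulatory factors (IRFs), numbered CD antigens, and the GAL series of avian beta-defensins. Of these, 134 were listed for remiges, 133 for plumes and 128 for both. By role they were 17 interleukins, 33 interleukin receptors, 9 chemokines, 12 chemokine receptors, 4 colony stimulating factors or receptors, 9 TLRs, 6 IRFs, 37 CD antigens, 11 beta-defensins and IL4I1, an amino acid oxidase that the symbol pattern also takes and that stayed at no more than 1.12 TPM.

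The feathers came from White leghorn roosters whose age is not given in the sources used here, and the study asked which genes differ between follicles that make narrow and wide vanes. Primary remiges, the asymmetric flight feathers of the wing, were divided into the lateral side (narrow vane) and the medial side (wide vane), and body plumes were taken from the dorsum (narrow vane) and the breast (wide vane). From each, the epithelium that forms the feather and the vascularised mesenchymal pulp inside it were separated, giving 8 groups with 2 libraries each, labelled as batch I and batch II and described as biological replicates, and 16 libraries in all. A remige library pooled 3 follicles and a plume library 25, and each started from 4 µg of RNA read as 50 bp single ends, so that a value is an average over follicles, with no treatment or genetic change in any group, and p-values measure the spread between 2 such pools.

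Interleukins and chemokines are secreted signals that leukocytes and barrier cells use to call, keep alive and switch one another. TLRs recognise microbial products, IRFs carry such signals to target genes, and many CD antigens mark leukocyte or vessel lineages. Beta-defensins are small cationic peptides that kill microbes and are stored by avian heterophils, the counterpart of the mammalian neutrophil. Skin holds resident macrophages, dendritic cells and T cells in its mesenchyme, while keratinocytes make a smaller set of cytokines and receptors of their own. The roles given below are known mainly from mammals unless a gene is named as avian.

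Levels are given as TPM, a transcript abundance made by rescaling the deposited RPKM (reads scaled by transcript length and library size) to the same total in every library, which allows levels of different genes to be compared per transcript length. The libraries held 23422936 to 45755636 alignments, so that 1 alignment on a transcript of 1 kb was worth 0.0513 to 0.121 TPM. A gene whose mean reached 1 TPM in any group of its table entered the test with limma on log2(TPM + 1), which understates the change of low genes, and a difference was called at an adjusted p under 0.05 over all genes tested. Of the members, 108 passed this filter in remiges and 110 in plumes, and 25 passed in neither. The labelled tissues carried their markers. The summed level of 10 keratinocyte markers was 5987 to 8592 TPM in epithelium and 1093 to 1921 TPM in pulp. That of the 7 fibroblast markers listed (of 10) was 143 to 257 TPM in epithelium and 7448 to 16349 TPM in pulp. Pulp libraries thus held keratinocyte markers too, with KRT5 at 297 to 626 TPM, and carry-over between the tissues was not tested. The 2 libraries of a group correlated at r = 0.977 to 0.995 over the genes tested in 6 groups and at r = 0.956 and 0.959 in lateral and medial remige pulp, where batch I and batch II stood apart, as described with the batch values.

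Of the 139 members, 23 stayed under 1 TPM in every library. They included 10 of the 17 interleukins: IL4 and IL5, which drive antibody and eosinophil responses, IL6, a fever and acute phase cytokine, IL9, IL10, IL12A, IL17F, IL19, IL21 and IL22. CSF3, the granulocyte growth factor, peaked at 0.132 TPM and IL8, a chemoattractant of heterophils, at 0.368 TPM. The receptors IL9R, IL5RA and IL12RB1 and the chemokine receptors CCR9, CCR10 and CCR8L were also under this level. At this depth such values rest on few reads, and no difference among groups could be read from them.

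**Figure D1:**
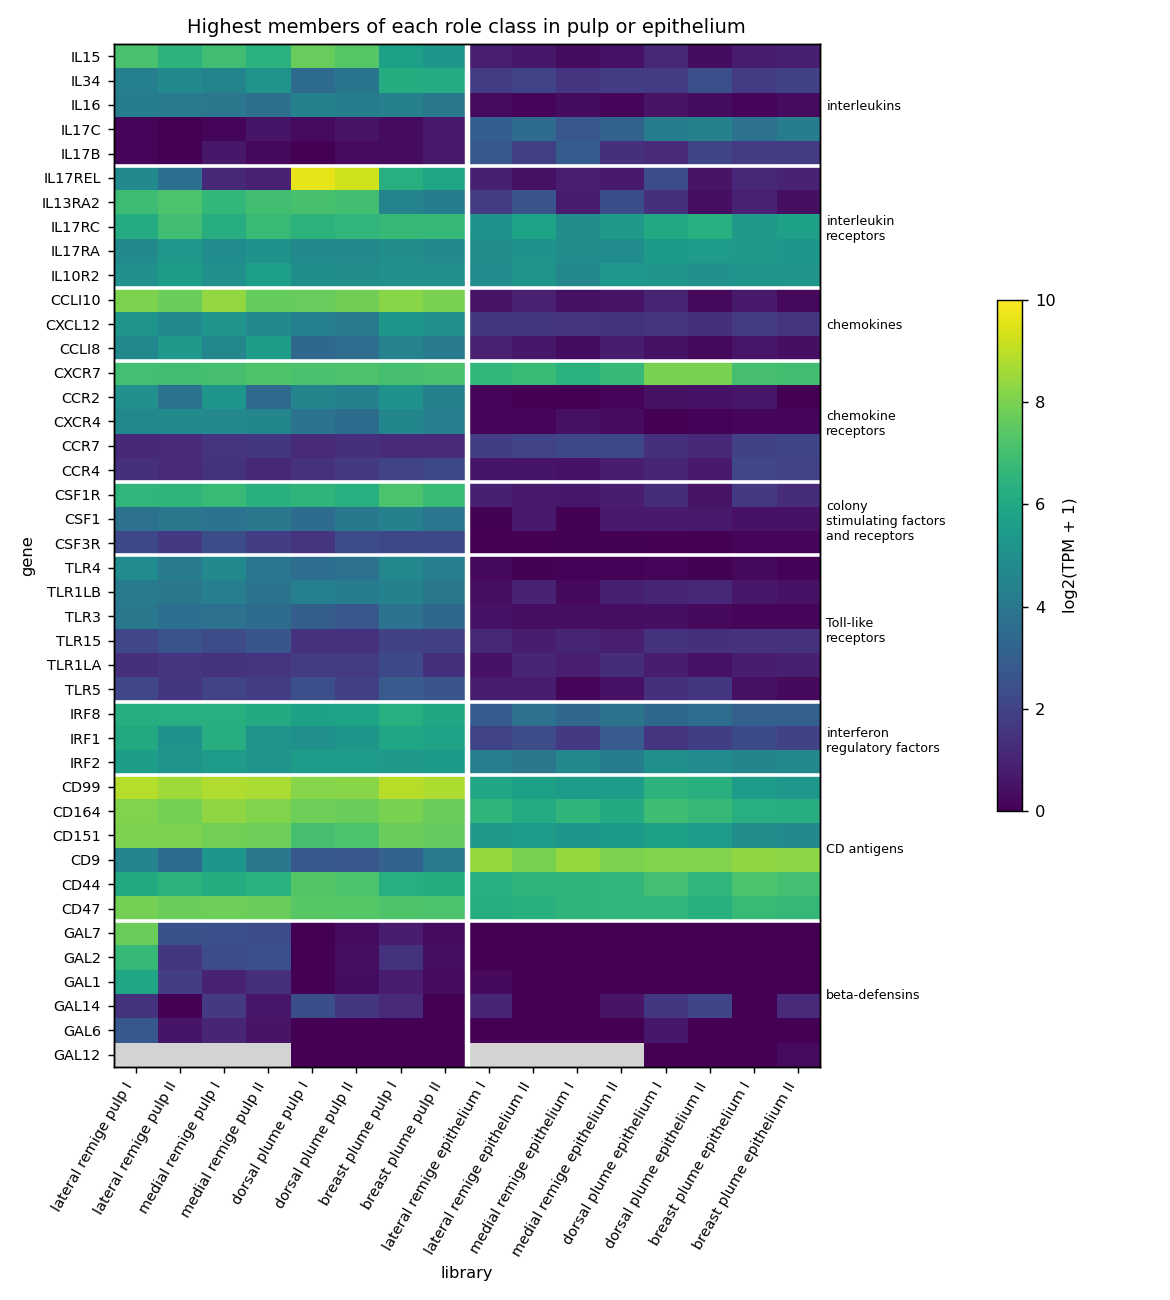
Levels as log2(TPM + 1) (colour) of members among the 3 highest of each role class in pulp or in epithelium (rows), in each of the 16 libraries (columns; pulp left, epithelium right). Grey marks a gene that the remige table does not list. Most rows were brighter in pulp, while CD9, IL17C and IL17B were brighter in epithelium and GAL7, GAL2 and GAL1 were bright in 1 library.

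The first question was how the families divided between the tissues. In remiges 84 of the 108 members tested were lower in epithelium than in pulp, against 44.9% of all genes tested, and 11 were higher, against 18.7%. In plumes 86 of 110 were lower in epithelium, against 47.0% of all genes, and 16 were higher, against 30.2%. The median log2 difference of the members was -1.75 in remiges and -1.53 in plumes, beside -0.35 and -0.18 over all genes. All 11 members higher in remige epithelium were also higher in plume epithelium, and 77 were lower in both. By the study's methods the lateral and medial libraries of a remige batch are sides of the same follicles. Their differences between batch I and batch II correlated at r = 0.805 in epithelium and 0.731 in pulp. Each remige tissue thus rests on 2 pools of follicles. The main fit took the sides as independent, and its remige SE and p-values do not allow for this. Fewer cells of a type and less RNA per cell cannot be told apart in such bulk libraries. The share of all called genes that were higher in epithelium depended on the scaling. It rose from 29.3% to 57.7% for remiges and, for plumes, from 39.1% to 57.3% under quantile normalization, which moved the median of all genes by 0.52 and 0.33. Under that scaling 58 of the 108 members were lower and 16 higher in remige epithelium, against 3530 and 4816 of all 12954 genes. In plume epithelium 71 of 110 were lower and 24 higher, against 4562 and 6125 of all 13246 genes. The direction changed for 7 members called in the main scaling in remiges (CCR4, CD101, CD5, CD86, IL10R1, IL23R and TLR1LA). It also changed for 7 members called in the main scaling in plumes (CCR4, CD5, CD79B, CXCR5, IL10R1, IL23R and TLR15).

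**Figure D2:**
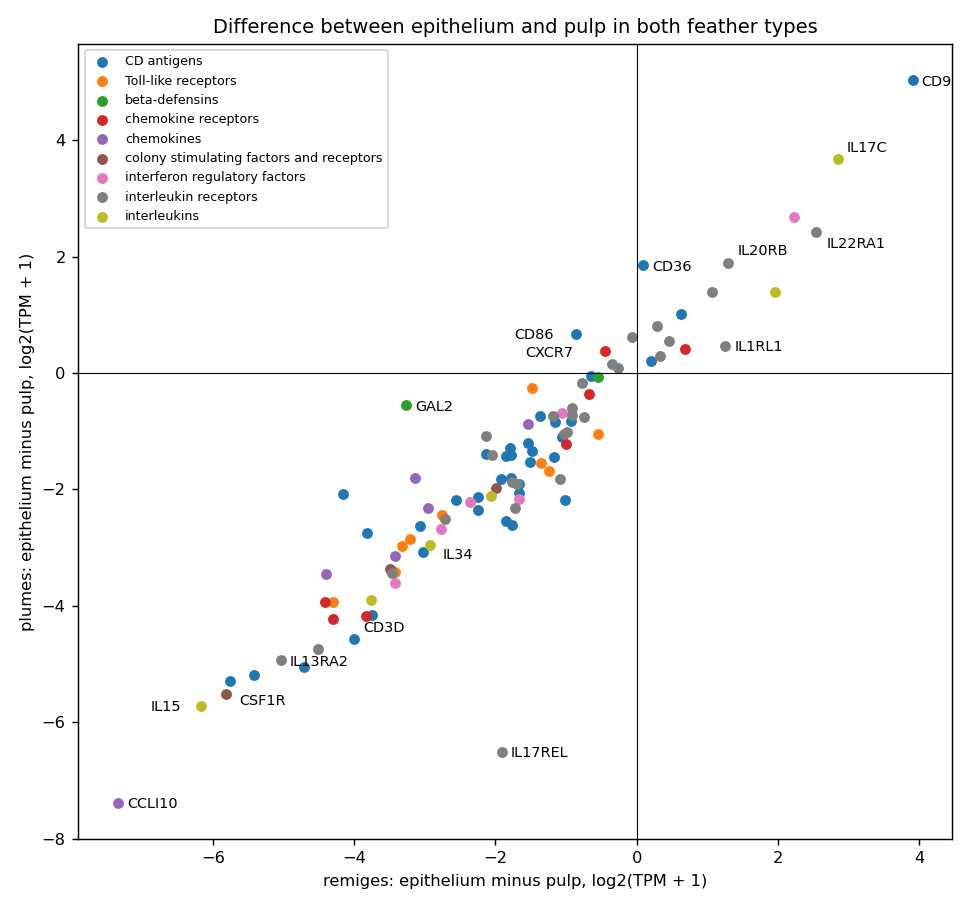
Epithelium minus pulp on the log2(TPM + 1) scale in remiges (horizontal) and plumes (vertical) for the 104 members tested in both tables, coloured by role class, 1 point per gene. Most points lay below and left of 0, CCLI10 was lowest on both axes, CD9 was highest on both, and IL17REL lay at -1.91 in remiges and -6.51 in plumes.

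Among the secreted signals, pulp was dominated by a few genes. CCLI10, which the tables name as a CC chemokine, reached 263 and 207 TPM in lateral and 329 and 198 TPM in medial remige pulp, and 204 and 226.6 TPM in dorsal and 299 and 253 TPM in breast pulp. In epithelium its 8 values were 0.164 to 1.04 TPM, so that no library of one tissue came near those of the other. Its log2 difference was -7.34 ± 0.20 (SE, adjusted p = 5.2e-07) in remiges and -7.38 ± 0.19 (SE, adjusted p = 3.8e-09) in plumes. CXCL12, which holds stem cells and leukocytes through CXCR4, was at 16.9 to 38.0 TPM in pulp and 1.64 to 2.44 TPM in epithelium. CCLI8, another gene named as a chemokine, was at 9.45 to 46.7 TPM and 0.168 to 0.871 TPM. All 6 chemokines tested were lower in plume epithelium, against 47.0% of all genes, and 5 of 6 in remige epithelium, against 44.9%. CCL19, a ligand of CCR7, missed the threshold in remiges and, under quantile normalization, in plumes as well.

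IL15, which sustains natural killer and memory T cells, was the highest interleukin of the pulp, with 141 and 88.0 TPM in lateral, 122 and 82.3 TPM in medial, 202 and 164 TPM in dorsal and 50.2 and 37.8 TPM in breast pulp. Epithelial values were 0.265 to 1.15 TPM and did not overlap with these. The log2 difference was -6.16 ± 0.20 (SE, adjusted p = 9.7e-07) in remiges and -5.72 ± 0.18 (SE, adjusted p = 9.2e-09) in plumes. IL16, a T cell attractant that binds CD4, was at 12.05 to 19.9 TPM in pulp. IL34, a ligand of the macrophage receptor CSF1R, was at 10.4 to 71.5 TPM in pulp and 1.89 to 4.51 TPM in epithelium.

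Epithelium had interleukins of its own. IL17C, which in mammals is made by epithelial cells and acts back on them through IL17RE, was at 6.85 and 10.2 TPM in lateral and 5.52 and 7.97 TPM in medial remige epithelium and at 17.3 and 19.8 TPM in dorsal and 12.2 and 17.3 TPM in breast epithelium. No pulp library exceeded 0.605 TPM. The log2 difference was 2.84 ± 0.20 (SE, adjusted p = 2.5e-05) in remiges and 3.68 ± 0.15 (SE, adjusted p = 4.8e-08) in plumes. IL17B, another member of the family, followed at 1.36 to 6.42 TPM in epithelium and at most 0.618 TPM in pulp. IL17RE, the receptor chain of IL17C, was higher in epithelium by 1.07 ± 0.29 (SE, adjusted p = 0.016) in remiges, where leaving out lateral epithelium II, medial epithelium II, lateral pulp I or medial pulp I gave an adjusted p of 0.0504 to 0.0553 for IL17RE, and by 1.39 ± 0.19 (SE, adjusted p = 1.5e-04) in plumes. IL17RA, the chain shared by the family, was at 28.1 to 44.1 TPM in epithelium and 25.2 to 39.1 TPM in pulp and was called higher in plumes, with 0.61 ± 0.07 (SE, adjusted p = 6.8e-05), and not in remiges, with -0.07 ± 0.15 (SE, adjusted p = 0.7). IL17RC, its partner, was at 29.4 to 76.3 TPM and 70.3 to 119.9 TPM and was lower in both epithelia.

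Of the receptors for IL20 and IL22, through which lymphocytes act on keratinocytes, IL22RA1 and IL20RB were also higher in epithelium. IL22RA1 was at 7.61 and 10.3 TPM in lateral, 7.78 and 10.1 TPM in medial, 6.86 and 7.35 TPM in dorsal and 7.89 and 7.20 TPM in breast epithelium, and at 0.205 to 1.26 TPM in pulp. All epithelial libraries were above all pulp libraries, with a log2 difference of 2.53 ± 0.16 (SE, adjusted p = 1.7e-05) in remiges and 2.43 ± 0.13 (SE, adjusted p = 2.3e-07) in plumes. IL20RB was at 0.735 to 6.29 TPM in epithelium and at most 0.124 TPM in pulp. IL20RA was called higher in plume epithelium, with 0.81 ± 0.12 (SE, adjusted p = 2.3e-04), and was not called in remiges, with 0.29 ± 0.22 (SE, adjusted p = 0.28). Under quantile normalization it was called higher in remiges as well (1.35, adjusted p = 0.0011). IL22RA2, a soluble decoy of IL22 that was chosen after its values were seen, was lower in both epithelia, with -1.04 ± 0.18 (SE, adjusted p = 0.0022) in remiges and -1.04 ± 0.16 (SE, adjusted p = 3.3e-04) in plumes. Its level was low, at 0.648 to 1.67 TPM in remige pulp. Neither call held under quantile normalization, with -0.29 (adjusted p = 0.174) in remiges and -0.116 (adjusted p = 0.492) in plumes. The ligands IL22 and IL19 stayed under 1 TPM.

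In the main scaling most interleukin receptors tested were higher in pulp. Of those tested, 17 of 28 were lower in remige and 19 of 30 in plume epithelium, against 44.9% and 47.0% of all genes. Higher in epithelium were 5 and 7, against 18.7% and 30.2% of all genes. These counts depended on the scaling. Under quantile normalization IL10R1, IL1R1, IL22RA2, IL23R, IL2RA and IL7R were no longer called lower in remiges. In plumes this held for IL10R1, IL18RAP, IL1R2, IL21R, IL22RA2 and IL23R. IL12RB2 and IL18R1 were then called higher in both epithelia and IL20RA in remige epithelium. The cells that carried these receptors were not tested. IL2RG, the chain common to the receptors of IL2, IL7 and IL15, was at 42.6 to 73.0 TPM in pulp and 1.01 to 1.51 TPM in epithelium. IL13RA2, a decoy receptor of IL13, was at 116 and 144 TPM in lateral, 97.9 and 126 TPM in medial and 136 and 126 TPM in dorsal pulp but at 21.4 and 17.9 TPM in breast pulp. Breast pulp was thus below the other pulps for this gene. IL10R2, which serves several cytokines, was at 29.5 to 48.7 TPM in pulp and 23.6 to 39.0 TPM in epithelium. In the main scaling it was called in neither table, with -0.36 ± 0.23 (SE, adjusted p = 0.21) in remiges and 0.16 ± 0.07 (SE, adjusted p = 0.056) in plumes. Under quantile normalization it was called higher in plume epithelium (0.343, adjusted p = 6.0e-04).

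Macrophage and chemokine receptors followed the pulp. CSF1R, the receptor of CSF1 and IL34, was at 94.1 and 93.4 TPM in lateral, 105 and 80.9 TPM in medial, 91.7 and 78.8 TPM in dorsal and 144 and 108 TPM in breast pulp. Its epithelial values were 0.442 to 2.14 TPM and the log2 difference was -5.81 ± 0.13 (SE, adjusted p = 3.4e-07) in remiges and -5.51 ± 0.18 (SE, adjusted p = 1.3e-08) in plumes. CSF1, its other ligand, was at 10.6 to 19.6 TPM in pulp and at most 0.646 TPM in epithelium. CXCR4 was at 10.6 to 25.7 TPM in pulp and at most 0.358 TPM in epithelium, and CCR2, a monocyte receptor, at 9.80 to 36.7 TPM and at most 0.530 TPM. CCR7, which guides dendritic cells, was slightly higher in epithelium, at 1.21 to 3.52 TPM against 1.22 to 2.04 TPM, ranges that overlapped, with 0.68 ± 0.12 (SE, adjusted p = 0.0029) in remiges and 0.40 ± 0.11 (SE, adjusted p = 0.0098) in plumes. CXCR7, an atypical receptor that takes up CXCL12, was the only chemokine receptor above 100 TPM, at 126 to 149 TPM in pulp and 82.3 to 254 TPM in epithelium. Together with CD86 it was called in opposite directions in the 2 tables, lower in remige epithelium with -0.45 ± 0.10 (SE, adjusted p = 0.008) and higher in plume epithelium with 0.37 ± 0.06 (SE, adjusted p = 3.0e-04), and under quantile normalization neither gene was called in remiges.

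All 9 TLRs were called lower in epithelium in both tables, against 44.9% of all genes in remiges and 47.0% in plumes. TLR4, the endotoxin receptor, was at 27.8 and 16.9 TPM in lateral, 26.3 and 14.2 TPM in medial, 11.3 and 12.6 TPM in dorsal and 23.5 and 18.5 TPM in breast pulp and at most 0.183 TPM in epithelium, with no overlap. TLR1LB, an avian partner of TLR2, was at 13.3 to 19.9 TPM in pulp, and TLR3, which senses double-stranded RNA, at 5.61 to 14.9 TPM. The avian copies of the TLR1 and TLR2 genes are close relatives, so the split of reads among them is uncertain. The epithelial levels were led by TLR15, known from birds and reptiles, TLR1LA and TLR5, the flagellin receptor, the last pair at 0.411 to 1.45 and 0.101 to 1.98 TPM. TLR15 was at 0.711 to 1.77 TPM against 1.65 to 5.32 TPM in pulp. Under quantile normalization TLR15 turned to higher in plume epithelium (0.72 on the log2 scale) and TLR1LA to higher in remige epithelium (0.54). TLR15, TLR21 and TLR5 were then no longer called in remiges, nor was TLR1LA in plumes.

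Of the 6 IRFs, 5 were lower in epithelium in both tables, against 44.9% of all genes in remiges and 47.0% in plumes. IRF8, a factor of macrophages and dendritic cells, was at 52.0 to 76.4 TPM in pulp and 6.44 to 13.4 TPM in epithelium, IRF1, induced by interferon, at 31.7 to 73.5 TPM and 1.83 to 6.24 TPM, and IRF2, its antagonist, at 35.6 to 45.9 TPM and 14.7 to 31.8 TPM.

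Of the 37 CD antigens tested in each table, 31 were lower in epithelium in each, against 44.9% of all genes in remiges and 47.0% in plumes. Higher were 2 in remige and 4 in plume epithelium, against 18.7% and 30.2%. Under quantile normalization CD180, CD2, CD226, CD3E, CD79B and CD8A were no longer called in remiges, nor was CD226 in plumes. CD44 was then called higher in both epithelia and CD101 in plume epithelium. Changes of direction are given with the tissue comparison. CD9, a tetraspanin of cell adhesion, was at 343 and 248 TPM in lateral, 342 and 261 TPM in medial, 272 and 275 TPM in dorsal and 326 and 308 TPM in breast epithelium and at 5.51 to 37.2 TPM in pulp. It showed the largest positive difference of the members in both tables, with 3.91 ± 0.34 (SE, adjusted p = 7.1e-05) in remiges and 5.03 ± 0.18 (SE, adjusted p = 1.9e-08) in plumes. CD151, also a tetraspanin, went the other way, at 133 to 269 TPM in pulp and 26.4 to 50.4 TPM in epithelium. CD99, an adhesion protein of leukocyte passage, had the highest mean of its class in pulp at 286 to 487 TPM, against 38.9 to 86.5 TPM in epithelium, and CD164, a sialomucin, followed at 207 to 326 TPM and 67.3 to 118 TPM. The broadly made adhesion proteins CD44 and CD47 were at 78.7 to 142 TPM and 74.7 to 105 TPM in epithelium and 66.1 to 161 TPM and 144 to 237 TPM in pulp.

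The lineage antigens CD34, CD93 and CD4 were low in epithelium, while CD3E and CD247, chains of the T cell receptor complex chosen after their values were seen, were still at 2.25 to 3.41 and 1.26 to 5.14 TPM there. CD34, of vessel and progenitor cells, was at 36.2 to 87.3 TPM in pulp and at most 0.725 TPM in epithelium. CD93, of endothelium, was at 40.6 to 82.5 TPM and at most 0.479 TPM. CD4, of helper T cells, was at 23.8 to 46.3 TPM and at most 0.513 TPM, with -4.71 ± 0.16 (SE, adjusted p = 9.9e-07) in remiges and -5.04 ± 0.14 (SE, adjusted p = 6.3e-09) in plumes. Over the same libraries the 6 leukocyte markers listed (of 8) summed to 583 to 822 TPM in pulp and 12.4 to 25.1 TPM in epithelium, and the 9 endothelial markers listed (of 10) to 430.5 to 876 TPM and 5.70 to 11.7 TPM, and the part of leukocyte and vessel content in the members' differences was not tested.

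Downstream and neighbouring pathways were listed for comparison. Of the 20 JAK and STAT genes tested in remiges, 12 were lower and 1 higher in epithelium, and of 19 in plumes 13 were lower and 3 higher. JAK1, the kinase shared by many cytokine receptors, was at 193 to 258 TPM in pulp and 53.4 to 109.5 TPM in epithelium. Of 26 TLR adapter and NF-kappa-B genes, 9 were lower and 4 higher in remige epithelium and 13 lower and 6 higher in plume epithelium. All genes had 44.9% lower and 18.7% higher in remiges and 47.0% and 30.2% in plumes. NFKBIZ, a nuclear regulator of NF-kappa-B targets, was at 49.8 to 277 TPM in epithelium and 11.2 to 44.8 TPM in pulp, while LY86, which binds a TLR4 relative, was at 177 to 471 TPM in pulp and at most 3.60 TPM in epithelium. Of 24 interferon pathway genes, 23 were lower in remige and 22 in plume epithelium. Antigen presentation genes had 9 of 12 lower in remiges and 10 of 12 in plumes, led by B2M, the light chain of class I molecules, at 1645 to 3217 TPM in pulp and 188 to 356 TPM in epithelium. Among complement genes 13 of 17 were lower in remige and 16 of 18 in plume epithelium, and among tumour necrosis factor family genes 14 and 16 of 22.

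Remige sides were compared next, to ask whether the narrow lateral and the wide medial vane differ. The main fit did not pair the sides of a batch, and the fit with the batch as a replicate block is given below. In the main fit no member was called in pulp, where 0% of the 12954 genes tested were called. None was called in epithelium, where 0.00772% were called, and 2 members had an unadjusted p under 0.05 in each tissue. The difference between the sides was not called as different between pulp and epithelium for any member either (0% of genes called, 3 members with an unadjusted p under 0.05).

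The smallest p in pulp belonged to IL17REL, a relative of the IL17 receptor IL17RE whose ligand is not established. It was at 26.02 and 11.5 TPM in lateral and 1.22 and 0.910 TPM in medial pulp, with both lateral libraries above both medial ones, and at 0.360 to 0.831 TPM in remige epithelium. The log2 difference was 3.16 ± 0.37 (SE, adjusted p = 0.11), and the adjusted p was 0.023 with the batch as a replicate block, where IL17REL was the 1 member called and 22 of all 12954 genes were higher and 14 lower. Without lateral pulp II 5 members were called higher in lateral pulp, of 11 genes in all: IL17REL (adjusted p = 0.0347) and the beta-defensins GAL1, GAL2, GAL4 and GAL7, which were high in the 1 lateral pulp library then left. The next 3 members by unadjusted p, CD28, GAL1 and CCR7, all had an adjusted p of 1. CD28 was at 1.57 and 3.00 TPM in lateral and 4.24 and 3.65 TPM in medial pulp, and CCR7 at 1.22 and 1.30 TPM and 1.94 and 2.04 TPM. In epithelium the 4 smallest were IL1RAP, CD47, CD320 and TLR5, again with an adjusted p of 1 each. IL1RAP, the accessory chain of the IL1 receptor, was at 20.1 and 24.0 TPM in lateral and 15.3 and 15.3 TPM in medial epithelium, and CD320, the receptor of vitamin B12 carried by transcobalamin, at 6.64 and 9.81 TPM and 4.39 and 6.25 TPM.

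In remige pulp the 2 batches stood apart on both sides. By a rule set after the values were seen, a member counted as different when its TPM + 1 in batch I and batch II pulp differed by more than 2-fold in the same direction on both sides. By this rule 16 of 108 members (14.8%) were higher in batch I, against 1.79% of all genes, and 2 (1.85%) in batch II, against 1.45%. The lateral and medial samples are the sides of the same follicles by the study's methods. The sides of a batch are thus not independent, and no test was made. The run labels of the batch I pulp libraries give no index or lane, unlike those of all other remige libraries, batch I epithelium included. Whether the pulp of batch I was sequenced apart is not stated, and its part in the batch differences was not tested.

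The batch I list held the T cell receptor complex and its companions. CD3D, a signalling chain of the T cell receptor, was at 91.6 and 98.0 TPM in batch I (lateral and medial) and 21.7 and 19.9 TPM in batch II. CD3E and the genes that follow were chosen after their values were seen. CD3E was at 25.8 and 33.1 TPM and 6.52 and 5.11 TPM, and CD8A, the cytotoxic coreceptor, at 7.49 and 8.14 TPM and 0.613 and 1.15 TPM. In each of these 3 genes both sides of batch I lay above both sides of batch II. CD247, CD8B, CD2, CD244, CD180, IL21R, CCR2, CCL1, CCL5, CCL19, TLR2-2 and GAL14 were also on the list. CCL19 was at 9.11 and 9.64 TPM in batch I and 0.851 and 0.659 TPM in batch II. CD4 differed less than these, with 30.0 and 31.6 TPM and 23.9 and 23.8 TPM. The T cell markers CD28, CD5, IL7R and IL2RG did not meet the rule either. For IL7R and CD5 this came from the added 1 TPM. Without it, batch I was 3.05 (lateral) and 6.75 (medial) times batch II for IL7R, and 2.04 and 3.14 times for CD5. IL7R was at 2.37 and 3.75 TPM in batch I and 0.777 and 0.555 TPM in batch II. CD28 was at 1.57 and 4.24 TPM in batch I and 3.00 and 3.65 TPM in batch II. The opposite pair were IL1R2, the decoy receptor of IL1, and CD80, which costimulates T cells, at 8.13 and 10.5 TPM in batch I and 28.4 and 25.97 TPM in batch II. The 13 T and natural killer cell markers listed (of 14, several of them members) summed to 296 and 319 TPM in batch I and 110 and 111 TPM in batch II, while the 10 macrophage and dendritic cell markers listed (of 15) summed to 826 and 858 TPM and to 725 and 661 TPM. A wide spread was not particular to T cell markers. Over the remige pulp libraries the B cell sum ran from 67.0 to 193 TPM and the erythrocyte sum from 346 to 1351 TPM. The endothelial sum ran from 648 to 876 TPM. In plume pulp the T and natural killer sum was 187 and 207 TPM in dorsal and 258 and 231 TPM in breast libraries. Without the batch I remige pulp libraries, an alternative chosen after seeing the data, fewer members were higher in remige epithelium. IL17B, IL20RB and IL17RE were then no longer called, and the count over all genes fell as well.

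**Figure D3:**
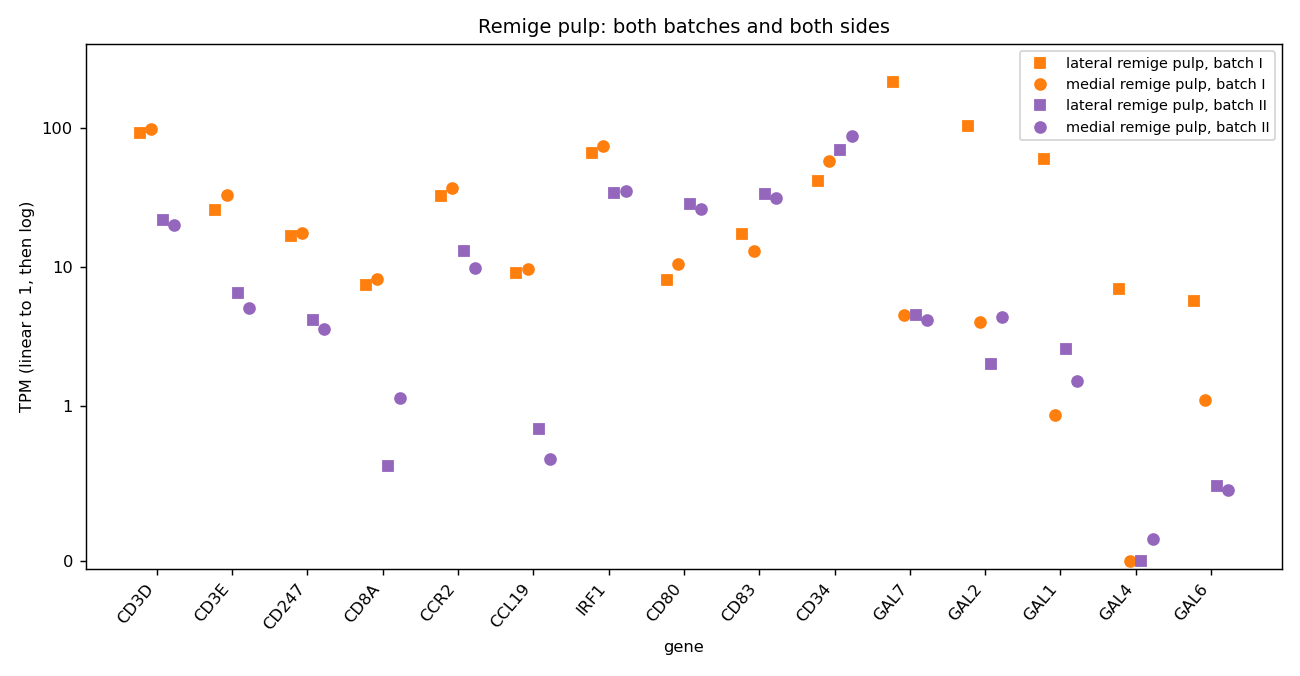
TPM (vertical, linear to 1 and logarithmic above) of 15 members in the 4 remige pulp libraries, with batch I in orange, batch II in purple, squares for lateral and circles for medial pulp. CD3D, CD3E, CD247 and CD8A were higher on both sides in batch I. CD80, CD83 and CD34 were higher in batch II, CD83 and CD34 without meeting the 2-fold rule. The beta-defensins shown were high in lateral pulp I only.

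In remige pulp the beta-defensins GAL7, GAL2, GAL1, GAL4 and GAL6 were carried by 1 library. GAL7 was at 212 and 4.54 TPM in lateral pulp and 4.50 and 4.16 TPM in medial pulp, GAL2 at 104 and 2.01 TPM and 4.04 and 4.39 TPM, and GAL1 at 59.9 and 2.57 TPM and 0.946 and 1.51 TPM. GAL4 and GAL6 reached 6.90 and 5.67 TPM in lateral pulp I and at most 0.143 and 1.11 TPM in the other remige pulp libraries. In each pair the first lateral value, batch I, stood far above the other 3 pulp libraries, while GAL7 and GAL2 were listed at 0 in every remige epithelium library. The same library was the high one for CATHL1 (22.6 TPM), CATHL2 (45.0 TPM) and LYG2 (28.3 TPM), 2 cathelicidins and a lysozyme of heterophil granules chosen after their values were seen, which were at no more than 1.71 TPM in the other remige pulp libraries. RSFR, a leukocyte ribonuclease, was at 715 and 374 TPM in lateral and 852 and 373 TPM in medial pulp, high on both sides of batch I. LYZ, a lysozyme, was at 18.0 and 16.4 TPM and 8.23 and 19.9 TPM. CSF3R, the granulocyte growth factor receptor, was at 3.53 and 2.28 TPM in lateral and 4.10 and 2.48 TPM in medial pulp and did not stand apart. The defensin GAL14 was at 1.73 and 0 TPM in lateral and 2.16 and 0.519 TPM in medial pulp, not highest in lateral pulp I. The part of heterophils in these values was not tested.

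GAL7, GAL2, GAL1 and GAL6 were called lower in remige epithelium, with log2 differences of -3.76 ± 1.03 (SE, adjusted p = 0.017), -3.27 ± 1.002 (SE, adjusted p = 0.026), -2.45 ± 0.81 (SE, adjusted p = 0.034) and -1.23 ± 0.45 (SE, adjusted p = 0.049). Without lateral pulp I these became -2.44, -1.99, -1.43 and -0.69, and without lateral pulp II, -5.07, -4.55, -3.47 and -1.77, all still called. GAL1, GAL2 and GAL6 lost the call when any other single library was left out, with a pseudocount of 5 TPM, with RPKM in place of TPM and with quantile normalization. GAL7 lost it with the pseudocount of 5 TPM (adjusted p = 0.0837). In plumes GAL7, GAL2 and GAL1 were at 0 to 0.695, 0 to 1.77 and 0 to 0.725 TPM over the 8 libraries, and the call of GAL2, with -0.55 ± 0.22 (SE, adjusted p = 0.0496), was lost in 11 of 13 alternatives, among them 7 of the 8 omissions of a library (adjusted p = 0.0625 to 0.158), quantile normalization (0.213) and the batch as a replicate block (0.059). GAL14 was the highest defensin there, with 4.32 and 2.03 TPM in dorsal pulp, 1.33 and 0 TPM in breast pulp, 2.10 and 3.31 TPM in dorsal epithelium and 0 and 1.34 TPM in breast epithelium, groups that overlapped between tissues. GAL10 was at 0.192 to 1.45 TPM in plume pulp and listed at 0 in plume epithelium, with -0.84 ± 0.16 (SE, adjusted p = 9.6e-04), and passed the filter through pulp alone. GAL3, GAL9, GAL11 and GAL12 stayed under 1 TPM wherever they were listed. Beta-defensin genes lie next to close relatives and the GAL numbers have been used in more than 1 scheme, so the assignment of reads and names among them is uncertain.

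In plumes the comparison of dorsal with breast follicles asked the same question of narrow and wide vanes, and here members were called. In pulp 8 of 110 were higher in dorsal, against 13.0% of all genes, and 34 were lower, against 15.2%. The median log2 difference was -0.32, beside -0.06 over all genes. In epithelium 11 were higher in dorsal, against 8.55% of all genes, and 7 were lower, against 9.10%, with a median of 0.02 for the members and -0.00268 for all genes.

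The members that were higher in dorsal pulp were led by IL17REL, which was at 785 and 614 TPM in dorsal and 76.2 and 57.7 TPM in breast pulp. It was the highest interleukin receptor in any group, 10.4 times higher in dorsal than in breast pulp by the ratio of means, with a log2 difference of 3.37 ± 0.48 (SE, adjusted p = 0.0011). Side by side, without a test, the remige pulp values of at most 26.02 TPM were below those of breast pulp. In both feather types the narrow-vane region had the higher level, a difference that the main fit, without pairing, did not call in remiges. IL13RA2 was at 136 and 126 TPM against 21.4 and 17.9 TPM, with 2.68 ± 0.29 (SE, adjusted p = 3.0e-04), and IL15 at 202 and 164 TPM against 50.2 and 37.8 TPM, with 2.04 ± 0.25 (SE, adjusted p = 5.5e-04). None of the 3 overlapped between the regions. For IL13RA2 the remige pulp libraries were at 97.9 to 144 TPM, and for IL15 they were at 82.3 to 141 TPM, between the plume regions.

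Further members higher in dorsal pulp were CD44, the hyaluronan receptor, at 161 and 141 against 75.4 and 71.1 TPM with 1.03 ± 0.14 (SE, adjusted p = 9.4e-04), and IL1RAPL2, an IL1 receptor relative of neurons, at 32.5 and 28.3 against 12.7 and 13.8 TPM with 1.14 ± 0.17 (SE, adjusted p = 0.0016). Its relative IL1RAPL1 was at 2.19 and 1.68 TPM in dorsal pulp and at most 0.108 TPM in every other library, with 1.43 ± 0.15 (SE, adjusted p = 2.6e-04). IL1RAPL1 thus passed the filter through dorsal pulp alone, and its call is not independent of the filter. IL17RD, which also damps fibroblast growth factor signals, was at 14.6 and 14.4 against 10.7 and 9.10 TPM with 0.51 ± 0.14 (SE, adjusted p = 0.027). CXCR5 was at 2.21 and 1.31 against 0.748 and 0.102 TPM with 0.97 ± 0.26 (SE, adjusted p = 0.023), and of the 2 plume pulps only dorsal reached the filter for it. Both calls were lost without dorsal pulp I and without breast pulp II. The call of IL17RD stood in 10 of 16 alternatives and that of CXCR5 in 10 of the 14 that gave a value.

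IL34 led the members lower in dorsal pulp, at 10.4 and 13.7 TPM in dorsal and 71.5 and 70.2 TPM in breast pulp, with -2.48 ± 0.23 (SE, adjusted p = 1.2e-04). Remige pulp was at 19.0 to 35.3 TPM, and the receptor CSF1R was not called, with -0.54 ± 0.26 (SE, adjusted p = 0.16), although both breast libraries were above both dorsal ones. The chemokine CCL1 was at 2.21 and 1.15 against 9.28 and 5.43 TPM with -1.63 ± 0.27 (SE, adjusted p = 0.0028), and CD28, the costimulatory receptor of T cells, at 1.38 and 1.87 against 5.37 and 5.69 TPM with -1.32 ± 0.16 (SE, adjusted p = 5.6e-04). CD36, a receptor of fatty acids and apoptotic cells, was at 17.7 and 18.4 against 53.7 and 47.3 TPM with -1.43 ± 0.10 (SE, adjusted p = 3.0e-05). Neither CCL1, CD28 nor CD36 overlapped between the regions. CD109, a coreceptor that binds transforming growth factor beta, was at 6.03 and 5.23 against 18.0 and 16.4 TPM with -1.46 ± 0.20 (SE, adjusted p = 8.8e-04). IRF10, an avian and fish factor lost in mice and humans, was at 3.25 and 4.60 against 11.0 and 9.94 TPM with -1.23 ± 0.18 (SE, adjusted p = 0.0012). IL20RA and CCL19 completed the 8 with the largest fall, with log2 differences of -1.08 ± 0.17 (SE, adjusted p = 0.0019) and -0.98 ± 0.24 (SE, adjusted p = 0.018), the latter called in 9 of the 14 alternatives that gave a value.

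The 34 members lower in dorsal pulp comprised 15 of 37 CD antigens, 7 of 30 interleukin receptors, 4 of 6 chemokines, 4 of 9 TLRs, 2 of 6 IRFs, IL34 and CXCR4. The 8 members higher were 5 of the 30 interleukin receptors, IL15, CD44 and CXCR5. Over all genes 15.2% were lower and 13.0% higher in dorsal pulp, the shares for these counts and for those of the marker lists below. CXCL12 was at 18.9 and 16.9 against 38.0 and 32.0 TPM with -0.93 ± 0.16 (SE, adjusted p = 0.0028), its receptor CXCR4 at 13.0 and 10.6 against 23.3 and 18.2 TPM with -0.76 ± 0.17 (SE, adjusted p = 0.013), and TLR4 at 11.3 and 12.6 against 23.5 and 18.5 TPM with -0.76 ± 0.17 (SE, adjusted p = 0.011). Leukocyte and vessel markers were also lower in dorsal pulp: the leukocyte sum was 583 and 586 TPM in dorsal and 822 and 693 TPM in breast pulp, with 2 of 6 called lower, and the endothelial sum 430 and 442 TPM against 781 and 580 TPM, with 4 of 9 called lower. The macrophage and dendritic cell list had 5 of 10 called lower and the T and natural killer list 3 of 13. The keratinocyte list had 4 of 10 called lower and 1 higher, and the fibroblast list 2 of 7 called higher. The thrombocyte list had 2 of 8 called higher, THBS1 and the member CXCR5. Its sum was 259 and 239 TPM in dorsal against 140 and 129 TPM in breast pulp. THBS1 had the highest mean of that list, and ITGB3, the next, was at 13.2 to 28.4 TPM in pulp. The other 6 genes were not called, and the median log2 difference of the 8 was -0.12. Whether thrombocyte RNA as such was higher in dorsal pulp was not tested. The part of these marker lists in the members' differences was not tested either. The count of 34 fell to 18 with a pseudocount of 0.1 TPM, where that of all genes lower in dorsal pulp fell from 2017 to 1573. It also fell without dorsal pulp I and without breast pulp I, as did the count over all genes.

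**Figure D4:**
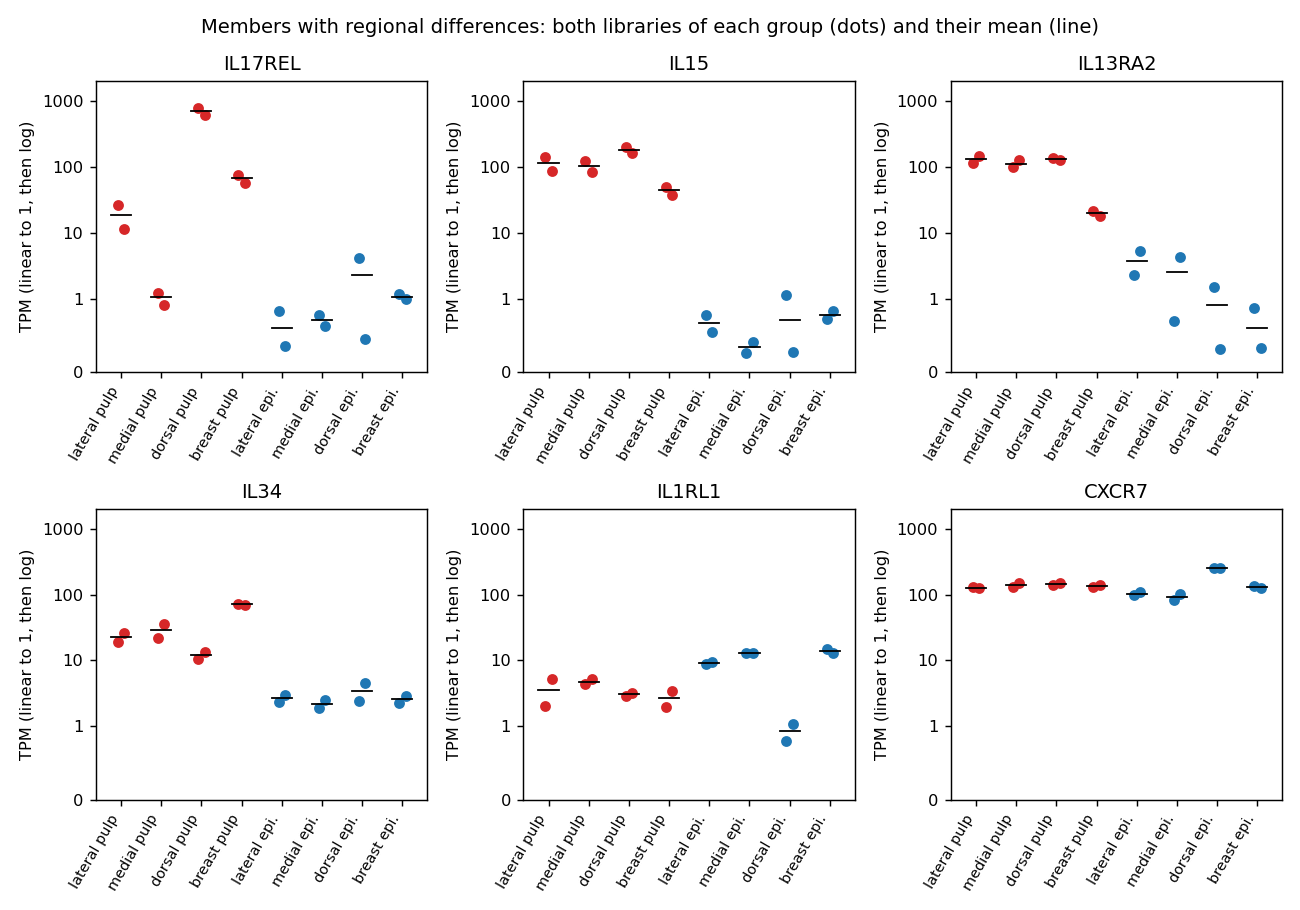
TPM (vertical, linear to 1 and logarithmic above) of 6 members in the 8 groups (horizontal; epi., epithelium; lateral and medial are remiges, dorsal and breast are plumes). Dots are the 2 libraries of a group, lines their mean, red pulp and blue epithelium. IL17REL, IL15 and IL13RA2 were higher in dorsal than breast pulp, IL34 was lower, IL1RL1 was lower in dorsal than breast epithelium and CXCR7 was higher.

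In plume epithelium the largest difference was that of IL1RL1, the receptor of the alarmin IL33. It was at 0.800 and 1.08 TPM in dorsal and 14.8 and 12.8 TPM in breast epithelium, with a log2 difference of -2.93 ± 0.21 (SE, adjusted p = 1.2e-04), while remige epithelium had 8.93 and 9.64 TPM on the lateral and 12.8 and 12.9 TPM on the medial side. The 2 dorsal libraries were below all 6 other epithelial libraries. CCR4, CD109, IL7, CCR7, CD38 and CD247 were also lower in dorsal epithelium, CCR4 at 1.11 and 0.632 against 3.37 and 2.99 TPM with -1.17 ± 0.19 (SE, adjusted p = 0.0041) and CCR7 at 1.58 and 1.21 against 2.94 and 3.25 TPM with -0.78 ± 0.16 (SE, adjusted p = 0.012). Of these 7, 2 remained called when the fit held only the 4 libraries compared (IL1RL1 and CCR4). In that fit 537 of all genes were lower in dorsal epithelium, in place of 1205.

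Higher in dorsal epithelium were IL20RB, at 5.44 and 6.29 against 0.914 and 1.39 TPM with 1.68 ± 0.17 (SE, adjusted p = 5.0e-04), and IL13RA1, a chain of the IL4 and IL13 receptor, at 6.76 and 6.19 against 1.68 and 1.26 TPM with 1.60 ± 0.15 (SE, adjusted p = 3.4e-04). CXCR7 was at 254 and 251 against 133 and 124 TPM with 0.97 ± 0.08 (SE, adjusted p = 2.1e-04), and CD99 at 86.5 and 79.9 against 43.4 and 38.9 TPM with 0.999 ± 0.09 (SE, adjusted p = 3.4e-04). In each of these 4 both dorsal libraries were above both breast ones, and the dorsal values of CXCR7 were also above all other 14 libraries. TLR5 was at 1.61 and 1.98 against 0.368 and 0.187 TPM with 1.13 ± 0.21 (SE, adjusted p = 0.0087), CD151 at 50.4 and 43.6 against 29.0 and 26.4 TPM with 0.74 ± 0.10 (SE, adjusted p = 0.0024), and CD86, which costimulates T cells, at 6.94 and 6.43 against 2.94 and 3.12 TPM with 0.93 ± 0.18 (SE, adjusted p = 0.0094). The 11 and 7 calls became fewer when either breast epithelium library was left out, as did the calls over all genes. Of the 15 named calls 7 stood under every alternative: IL20RB, IL13RA1, CD99, CXCR7, CD151, IL1RL1 and CCR4.

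The dorsal to breast difference itself differed between pulp and epithelium for 28 of 110 members, near the 22.7% of all genes, so the count is not particular to the members. For 8 it was more positive in pulp and for 20 more negative. Members called in both tissues were IL1RAPL2, higher in dorsal in both, CD109 and CD38, lower in both, and CD151, CD36, CD86 and CD99, lower in dorsal pulp and higher in dorsal epithelium. CD99 was at 286 and 297 against 487 and 435 TPM in pulp, the reverse of its order in epithelium, and the difference of the differences was -1.66 ± 0.13 (SE, adjusted p = 1.3e-04). IL17REL, IL13RA2, IL15 and IL34 were called in pulp only, with interaction terms of 2.97 ± 0.67 (SE, adjusted p = 0.015), 2.47 ± 0.42 (SE, adjusted p = 0.0041), 2.14 ± 0.35 (SE, adjusted p = 0.0039) and -2.76 ± 0.32 (SE, adjusted p = 7.4e-04), that of IL17REL being lost in 5 of 15 alternatives. IL1RL1 was called in epithelium only, with 3.10 ± 0.30 (SE, adjusted p = 3.3e-04). A gene near or below 1 TPM in a tissue, as IL15 in epithelium, could show little regional difference there on log2(TPM + 1). Its interaction term then mostly repeats the difference in the other tissue.

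**Figure D5:**
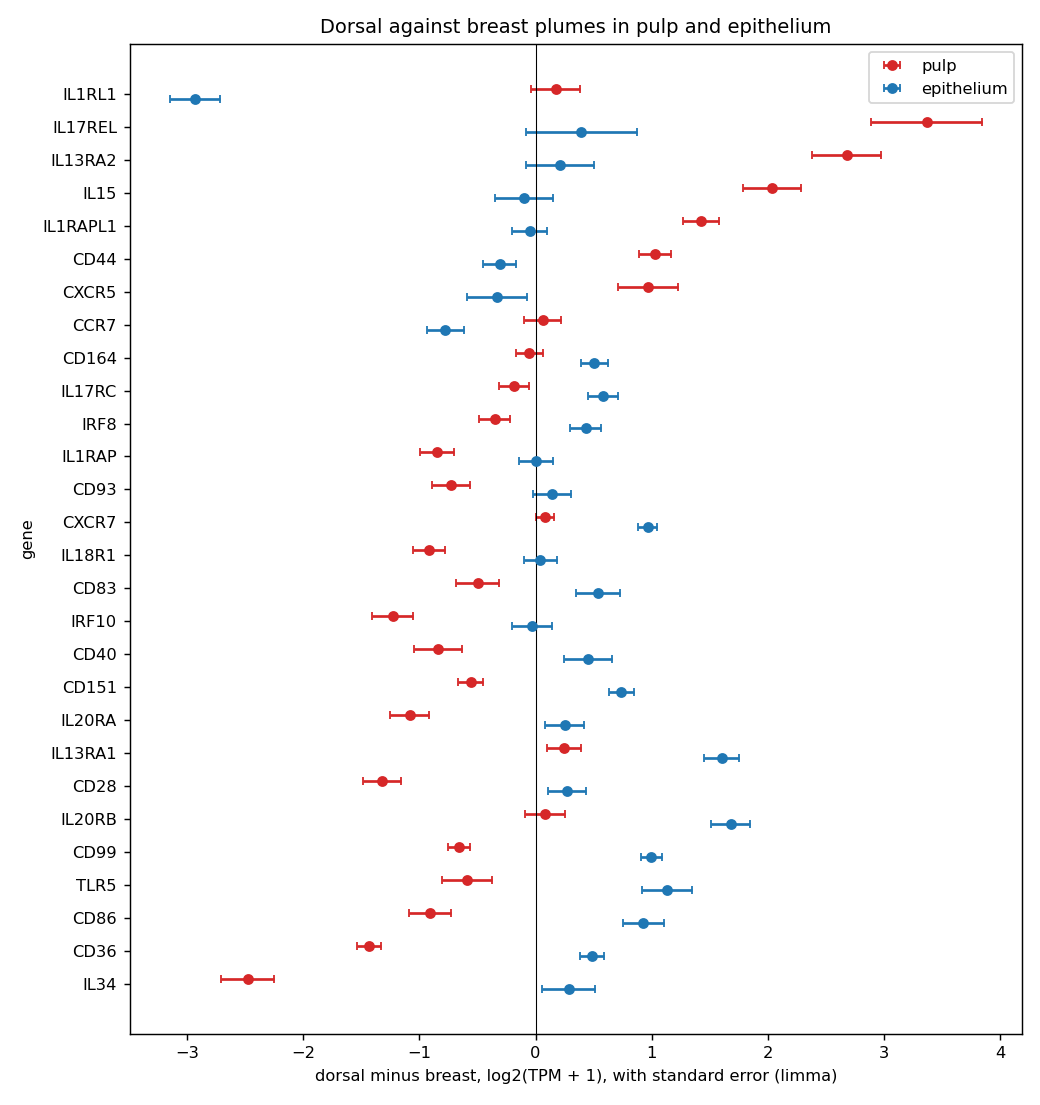
Dorsal minus breast on the log2(TPM + 1) scale with the standard error from limma (horizontal) for the 28 members (vertical) whose regional difference was called as different between the tissues, pulp in red and epithelium in blue. IL17REL, IL13RA2 and IL15 lay to the right in pulp, IL34 to the left in pulp, and IL1RL1 to the left in epithelium.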

How the data were processed

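RNA of separated feather epithelium and pulp was sequenced as 50 bp single ends, and reads were aligned with TopHat2 to galGal4 and quantified with Partek per the labels and the study's methods (versions not given in the sources used here). The deposited tables hold RPKM per gene, made by the authors for remiges and for plumes separately, and the number of alignments per library, a count that the authors give beside them. Alignments were used for depth only. Because the tables were made separately, remiges and plumes were never tested against each other.

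RPKM were rescaled to one total per library, giving TPM. A gene entered the test where its mean reached 1 TPM in any group of its table. Low genes could thus pass only through the group where they were high, and their calls are not independent of that filter. Tests were made with limma 3.58.1 in R 4.3.3 on log2(TPM + 1), with 4 group means over the 8 libraries of a table, a trended empirical Bayes variance, two-sided tests and Benjamini-Hochberg adjustment over all genes tested. Scripts were tested on simulated data. Figures were drawn with matplotlib 3.10.9 in python 3.11.15. Symbols were compared with the RefSeq table of assembly GRCg7b for names only. Of the 139 members, 112 matched a current symbol, 22 a synonym and 5 neither, and no sequence or position is given.

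Members and lists were chosen with earlier results of these data known. Named were the 3 highest members of each role class in each tissue by mean TPM, up to 8 called members per comparison and direction by size of change among those whose libraries did not overlap (where fewer than 3 were called, the 4 smallest unadjusted p), all members called for a difference between the tissues, all beta-defensins, and up to 3 genes of each other list. Other names are marked as chosen after their values were seen. Some members that the rule names are not reported here.

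The labels give a batch number to every library, by which libraries were paired in the fit with a replicate block only. Deviations of same-batch libraries from their group means correlated at 0.446 to 0.805 in remiges but at 0.00429 to 0.117 in plumes, where the pairing rests on the label and hardly shows in the values. The batch as a replicate block, a pseudocount of 0.1 or of 5 TPM, no filter on low genes, a higher minimum (5 TPM), RPKM without rescaling, quantile normalization, fits on the compared libraries alone and the omission of each library were the alternatives. Each group had 2 libraries, which leaves 4 residual degrees of freedom per table and limits the precision.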

Additional observations from a re-analysis of the deposited data

Results flagged for a closer look

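The difference between dorsal and breast plumes was itself tested for a difference between pulp and epithelium. With limma 28 of 110 members passed at an adjusted p under 0.05, near the 22.7% of all genes, so the count is not particular to the members. Of all genes 1452 had a more positive and 1550 a more negative difference in pulp. The values that follow are the log2 difference of pulp minus that of epithelium.

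A more positive dorsal to breast difference in pulp was found for 8 members. For IL1RL1 it was 3.1, for IL17REL 2.97, for IL13RA2 2.47 and for IL15 2.14. For IL1RAPL1 it was 1.48, for CD44 1.34, for CXCR5 1.3 and for CCR7 0.838. IL1RL1 and CCR7 stood out through their lower level in dorsal epithelium and the other 6 through a higher level in dorsal pulp.

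A more negative difference in pulp was found for 20 members. Among the receptors and signals of the interleukin families it was -2.76 for IL34, -1.59 for IL20RB, -1.36 for IL13RA1, -1.33 for IL20RA, -0.959 for IL18R1, -0.852 for IL1RAP and -0.768 for IL17RC. Among the CD antigens it was -1.92 for CD36, -1.84 for CD86, -1.66 for CD99, -1.59 for CD28, -1.3 for CD151, -1.29 for CD40, -1.04 for CD83, -0.866 for CD93 and -0.559 for CD164. For TLR5 it was -1.72, for IRF10 -1.2, for IRF8 -0.785 and for CXCR7 -0.885. CD83, of mature dendritic cells, was at 5.10 and 5.30 TPM in dorsal and 8.63 and 6.97 TPM in breast pulp and at 1.44 and 0.798 TPM and 0.437 and 0.444 TPM in epithelium. CD40, which receives help from T cells, was at 21.6 and 25.1 TPM and 42.9 and 41.9 TPM in pulp and 19.6 and 12.3 TPM and 12.7 and 9.73 TPM in epithelium.

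Of the 28 calls, 15 held under every alternative that gave a value: CD151, CD28, CD36, CD44, CD86, CD99, CXCR7, IL13RA1, IL15, IL1RAPL1, IL1RL1, IL20RA, IL34, IRF10 and TLR5.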

How the results depend on the processing

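With 2 libraries a group the counts rested on single libraries in several comparisons. Leaving out each library in turn gave 9 to 11 members higher and 74 to 87 lower in remige epithelium, 15 to 18 higher and 82 to 85 lower in plume epithelium, 6 to 9 higher and 19 to 33 lower in dorsal pulp, 6 to 12 higher and 2 to 10 lower in dorsal epithelium, and 18 to 29 with a difference between the tissues in plumes (18 without breast epithelium I). Between lateral and medial pulp the count higher ranged from 0 to 5, and the count whose side difference differed between the tissues from 0 to 2, both highest without lateral pulp II, while no member was called lower in lateral pulp, or in either direction in epithelium, under any omission. The lone library left in a group was then assumed to vary like the others. The counts over all genes also changed with the library left out. With a pseudocount of 0.1 TPM 18 members were lower in dorsal pulp, with a minimum of 5 TPM 4 were lower in dorsal epithelium (fewer genes were tested), and with only the libraries of the comparison 2 were. Over all genes 1573, 1164 and 537 were lower in these fits. Without the batch I remige pulp libraries, chosen after seeing the data, 7 members were higher in remige epithelium. The cause of the other shifts was not tested.

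With the batch as a replicate block 1 member was higher in lateral pulp (IL17REL), the counts were 12 higher and 88 lower in remige epithelium, 18 and 84 in plume epithelium, 8 and 33 in dorsal pulp, 12 and 8 in dorsal epithelium, and 31 with a difference between the tissues. Over all genes this fit gave 3142 higher and 6941 lower in remige epithelium and 4075 and 6298 in plume epithelium. It gave 1865 and 2188 in dorsal pulp and 1263 and 1362 in dorsal epithelium. The difference between the tissues in plumes was more positive for 1603 of all genes and more negative for 1680. Among named members, the block ended the call of GAL2 in plume epithelium, a call lost in 11 of 13 alternatives.

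GAL14, not called between the tissues, changed sign. In remiges it was 0.136 under quantile normalization and 0.081 without the batch I pulp libraries. In plumes it was 0.633 under quantile normalization and ran from -0.371 to 0.243 over the omission of each library, with 0.0546 without dorsal epithelium I, 0.139 without dorsal pulp I, 0.243 without breast epithelium I and 0.24 without breast pulp I. Over the pairs of gene and comparison chosen by the naming rule and all settings 1649 values were computed, of which 1488 kept direction and side of the threshold, 150 lost and 4 gained a call, and 7, all of GAL14, changed direction, beside the changes of other members under quantile normalization given with the tissue comparison. Low members rested on few reads, since 1 alignment on 1 kb was worth up to 0.121 TPM.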

Other observations

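Pathway genes outside the symbol families were also compared between dorsal and breast pulp. Over all genes 15.2% were lower and 13.0% higher in dorsal pulp. Of 24 interferon pathway genes tested, 7 were lower in dorsal pulp and 0 higher, and of 12 antigen presentation genes 6 were lower and 0 higher. IFNAR2, a chain of the type I interferon receptor, was at 60.4 and 59.3 TPM in dorsal and 85.4 and 72.0 TPM in breast pulp, with -0.38 ± 0.12 (SE, adjusted p = 0.046). B2M was at 1645 and 1893 TPM against 2553 and 2366 TPM, with -0.48 ± 0.10 (SE, adjusted p = 0.0067), and BF1, a class I heavy chain of the chicken, at 338 and 376 TPM against 466 and 424 TPM, with -0.32 ± 0.10 (SE, adjusted p = 0.046). BLB1, a class II chain, was not called in pulp, at 546 and 633 TPM against 879 and 772 TPM with -0.49 ± 0.41 (SE, adjusted p = 0.42). For B2M and BF1 both dorsal libraries lay below both breast libraries. The leukocyte markers moved in the same direction, as given with the members, and their part in these values was not tested.

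In plume epithelium, where 9.10% of all genes were lower and 8.55% higher in dorsal feathers, 1 of 24 interferon pathway genes was lower, and of 12 antigen presentation genes 1 was higher and 1 lower. TLR adapters and NF-kappa-B genes had 6 of 26 lower in dorsal pulp and 5 of 26 lower in dorsal epithelium, with 0 higher in either. NFKBIZ was at 11.9 and 11.2 TPM against 20.7 and 34.4 TPM in pulp, with -1.14 ± 0.20 (SE, adjusted p = 0.0036), and at 49.8 and 59.8 TPM against 268 and 277 TPM in epithelium, with -2.30 ± 0.20 (SE, adjusted p = 2.6e-04). Both dorsal libraries of NFKBIZ were below both breast libraries in each tissue. Of 18 complement genes 4 were lower and 1 higher in dorsal pulp, and of 22 tumour necrosis factor family genes 4 were lower and 2 higher. Of 19 JAK and STAT genes 2 were lower and 1 higher in dorsal pulp, and 3 were higher and 0 lower in dorsal epithelium. No gene of these lists was called between lateral and medial remiges in either tissue with limma in the main fit, which did not pair the sides of a batch. In that fit 1, 0, 0, 0, 0 and 0 genes of the interferon, antigen presentation, complement, tumour necrosis factor, TLR adapter and JAK and STAT lists had an unadjusted p under 0.05 in pulp and 0, 0, 0, 1, 1 and 0 in epithelium.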
